A study of Danio rerio with 4 samples.

Results

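Nuclear genes for the subunits of the mitochondrial respiratory chain and ATP synthase were followed in whole zebrafish embryos that lacked or carried a working npas4l gene. They were chosen by symbol, as every row of the gene table whose name starts with nduf followed by a, b, c, s or v, with sdh followed by a to d, with uqcr, with cox followed by a number from 4 to 8, or with atp5, and that lies outside the mitochondrial chromosome. This gave 94 of 24235 genes. 82 of them encode structural subunits, 35 of complex I, 5 of complex II, 8 of complex III, 18 of complex IV and 16 of complex V. The other 12 share a name stem only: 10 assembly factors of complexes I and II (ndufaf and sdhaf genes), cox7a3, described in the table as a Cox7a2l protein, and atp5s. The NDUFA4 genes, whose product sits in cytochrome c oxidase, were counted with complex IV. The rule used names and no measured value, but it was set with earlier results of these data known.

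Total RNA came from embryos at the 6-somite stage. 2 libraries came from wild-type AB embryos. The other 2 came from npas4l bns297/bns297 embryos, in which both copies of the gene carry the bns297 allele. The labels name no other allele or treatment. The npas4l gene encodes a bHLH-PAS transcription factor needed for endothelial and blood cells to form. The number of embryos and of clutches per library is unstated, so p-values measure only the spread between these libraries, which may be technical. For each gene that spread was drawn chiefly from its trend with value across all genes tested. In RNA from whole embryos, fewer cells of a type and less RNA per cell cannot be told apart.

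Complexes I to IV carry electrons from NADH and succinate to oxygen, and complexes I, III and IV pump protons across the inner mitochondrial membrane. Complex V, the ATP synthase, lets the protons flow back and makes ATP. Most subunits are encoded in the nucleus and imported, while the mitochondrial genome encodes core subunits of complexes I, III, IV and V but none of complex II. The early zebrafish embryo inherits its mitochondria from the egg. Several complex IV subunits exist as paralogues, and in mammals some of these are confined largely to heart and skeletal muscle.

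A value is the deposited number of reads per gene, scaled by 1 factor per library and rounded by the authors. It was not divided by gene length, so values were compared between libraries and not between genes. The libraries summed to 7272902 to 8237748. Mutant replicate 2 stood apart: 299 genes stood at 0 there, where the other libraries had 2444 to 3000 such genes. 31 of 33 marker genes for embryonic tissues reached a mean of 10. tal1, a blood and endothelial transcription factor gene, stood at 166 and 163 in the wild type but at 13 and 8 in the mutants. mylpfa, a fast-muscle myosin light chain gene, stood at 2 to 13 in all libraries. It was the exception among the somite and muscle markers. The others, myod1, myf5, tbx6, actc1b and aldoaa, had means of 106.25 (actc1b) or more. 85 of the 94 genes reached a mean of 10 over the 4 libraries and were tested.

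No respiratory chain gene passed the test between npas4l mutants and wild type. By limma over all 16653 genes tested, 0 of the 85 were called higher and 0 lower at an adjusted p under 0.05. Over the whole table, the percentages called were 0.006 higher, 0.042 lower and 0.048 in either direction. At an unadjusted p under 0.05, 0 members were higher and 1, ndufs3, was lower, and over all genes tested 1.84% and 1.91% passed that threshold in the same order, or 3.75% in all. limma-voom also called 0 members, with 2 at an unadjusted p under 0.05, a threshold that 3.18% of all genes tested passed by limma-voom.

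The differences were small on the log2(value + 1) scale, on which every fold change here is given. They ran from -0.81 (ndufs3) to 0.47 (ndufa3) over the 85 genes. 18 of the 94 members overlap another gene, among them ndufa3 and atp5e, and reads of the pair may have been shared in the counting. The median over the 85 was -0.08, against -0.02 over all genes tested and -0.05 over the genes that reached a mean of 50. It was -0.23 without mutant replicate 1, 0.06 without mutant replicate 2 and -0.02 without wild-type replicate 1. The 95% interval of the fold change lay within a 2-fold change either way in 71 of the 85 genes, and within 1.5-fold in 46. The respective shares over all genes tested were 62.1% and 36.4%. These intervals draw chiefly on the trend of spread with value across the whole table.

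**Figure D1:**
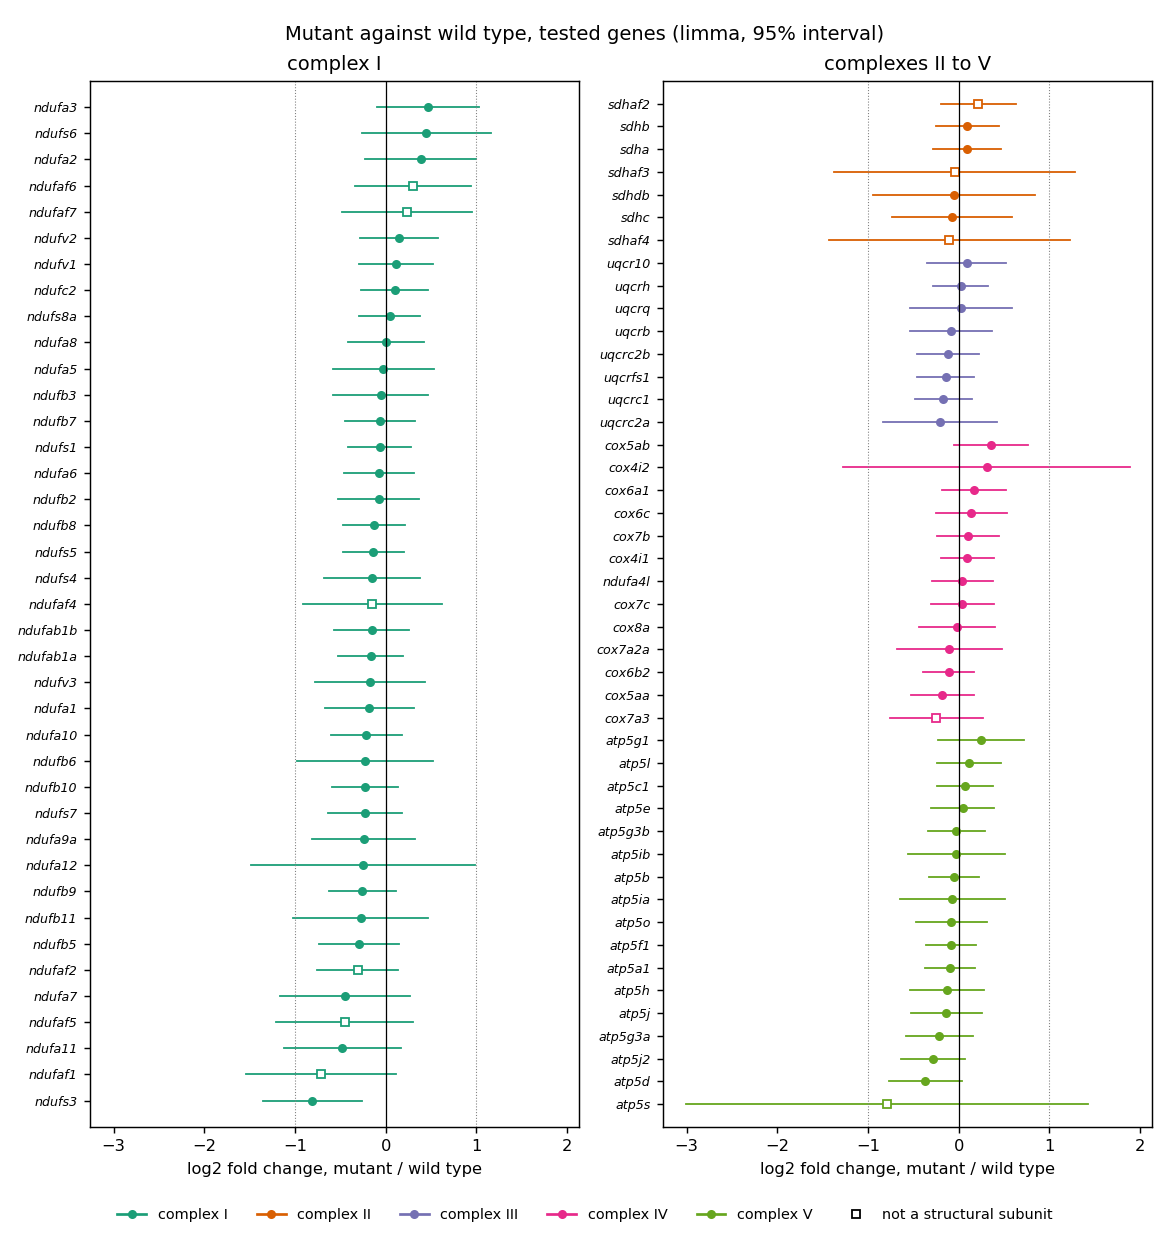
log2 fold change of 84 of the 85 tested genes, mutant over wild type, with its 95% limma interval, complex I on the left and complexes II to V on the right. Filled circles are structural subunits and open squares the other genes of the name rule; the dotted lines mark 2-fold changes. The interval of ndufs3 is the one that leaves out 0, and ndufs3 did not pass after adjustment.

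In 2 of the 85 genes both mutant libraries lay above both wild-type libraries, and in 17 both lay below. Over all genes tested these shares were 13.3% and 16.1%. Among all genes that reached a mean of 50, the counts were 1003 above and 2151 below of 10576. The members at that level had 2 above and 14 below of 75. The larger split ran between the mutant libraries. Mutant replicate 2 was below mutant replicate 1 in 70 of the 85 genes, with a median difference of -0.32, against -0.13 over all genes that reached a mean of 50. In a comparison added after the data were seen, it was -0.19 among those of them whose genomic span did not exceed 6211 bases, the median span of the tested members.

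Mutant replicate 1 was the highest library in 35 of the 85 genes and mutant replicate 2 in 4. Mutant replicate 2 was the lowest in 50. Much of this order was also seen among all genes that reached a mean of 50. There mutant replicate 1 was the highest in 30.2%, and mutant replicate 2 the highest in 13.6% and the lowest in 47.0%. The 75 members at that level had 45.3%, 4.0% and 60.0%, and all 85 genes had 41.2%, 4.71% and 58.8%. Over all genes tested the shares were 24.3%, 26.2% and 34.1%, so there mutant replicate 2 was most often the highest library. Relative to the wild-type mean, the median of the 85 stood at 0.06 in mutant replicate 1 and at -0.24 in mutant replicate 2, while the wild-type libraries stood at 0.01 and -0.01. The mutant libraries thus lay on both sides of the wild type. Mutant replicate 2 is also the library with the fewest genes at 0, and the part of that difference in these values was not tested.

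**Figure D2:**
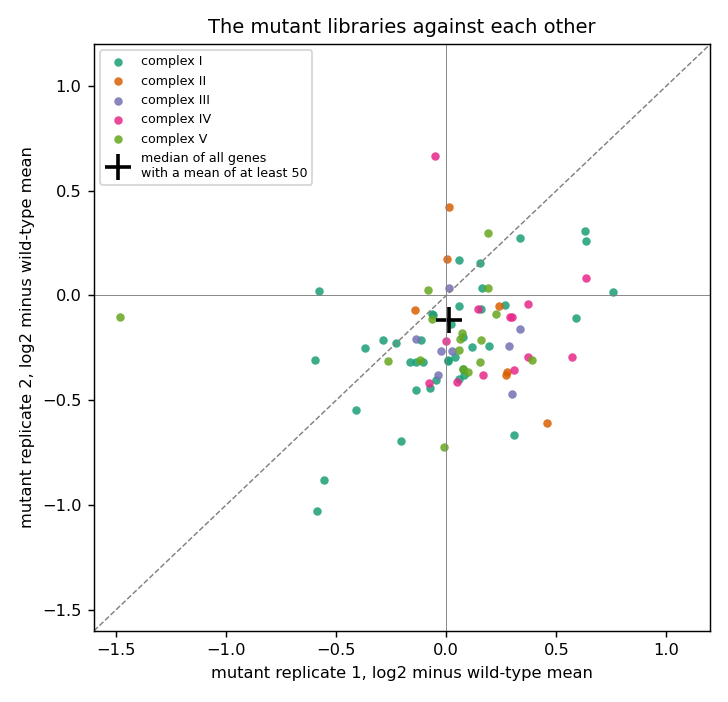
Each tested gene in mutant replicate 1 (horizontal) and mutant replicate 2 (vertical), as log2(value + 1) minus the wild-type mean, coloured by complex. Most points lie below the dashed line of equal values, 70 of 85, and the black cross marks the median of all genes that reached a mean of 50.

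Of the 35 complex I subunit genes, 34 were tested, and 0 were called. Their median log2 fold change was -0.14. 25 of the 34 had a negative and 9 a positive value, beside 8777 negative and 7876 positive of all 16653 genes tested. Of the genes that reached a mean of 50, 6589 of 10576 were negative. In 10 of the 34 complex I genes both mutant libraries lay below both wild-type libraries, and in 1 both lay above. The shares over all genes tested were 16.1% and 13.3%. Among all genes that reached a mean of 50, both lay below in 2151 of 10576. The median of complex I was 0.01 without mutant replicate 2 and -0.06 without wild-type replicate 1, so it rested on both of these libraries.

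The gene farthest from 0 was ndufs3 (ENSDARG00000015385, chromosome 7, 38317608 to 38323344, plus strand, GRCz10), a core subunit of the part of complex I that hands electrons to ubiquinone. Its values were 127 and 101 in the wild type and, in mutant replicates 1 and 2 in turn, 75 and 55. Values below follow the same order of libraries. Both mutant libraries lay below both wild-type libraries. This gave a log2 fold change of -0.81 ± 0.27 (standard error; limma adjusted p = 1), and with 1 library left out it ran from -1.03 to -0.59, with adjusted p from 0.139 to 1. slc7a9, which overlaps the gene on the same strand, had a mean of 3.

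The other core subunits, most of which bind the flavin or iron-sulphur clusters, differed by less. Only ndufs7 among them also lay below both wild types in both mutants. ndufv1, the NADH-binding subunit, stood at 164 and 163 in the wild type but at 170 and 184 in mutants, both mutants above both wild types by a log2 fold change of 0.11 ± 0.20. ndufs7, which carries the last iron-sulphur cluster, stood at 176 and 178 in the wild type but at 151 in both mutants (-0.23 ± 0.21). Neither passed the test.

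ndufs8a, an iron-sulphur subunit, had 311 and 319 in the wild type against 351 and 301 in mutants, and the groups overlapped. ndufv2 had 119 and 176 in the wild type against 161 in each mutant, and ndufs1, which holds several iron-sulphur clusters, 323 and 277 against 324 and 252. The 7 tested core genes had a median of 0.05.

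The 27 accessory subunits of complex I, which surround and stabilise the core, had a median of -0.15, with 22 negative and 5 positive values. Of the genes that reached a mean of 50, 6589 of 10576 were negative. In 8 of the 27 both mutants lay below both wild types, beside 16.1% of all genes tested and 2151 of the 10576 that reached a mean of 50. ndufa11, a membrane subunit, had 81 and 64 in the wild type against 54 and 49 in mutants (-0.48 ± 0.32). ndufs5, the accessory subunit with the most reads, had 365 and 337 against 370 and 275, so that the groups overlapped.

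Some accessory genes differed within a group by nearly as much as ndufs3 differed between groups, or more. ndufa1 stood at 120 and 132 in the wild type but at 156 and 79 in mutant replicates 1 and 2. ndufa2 stood at 63 and 56 and at 101 and 60. In the wild type, ndufa9a was at 125 and 63 and ndufb11, which overlaps rhoaa on the same strand, at 38 and 77. The mutants lay at 79 and 71 for ndufa9a and at 36 and 55 for ndufb11.

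The 6 tested ndufaf genes encode assembly factors, which help to build complex I without staying in it. They had a median of -0.23, and 0 were called. Complex I assembly factors with other names are not among these 6. In 3 of these 6 both mutants lay below both wild types, beside 16.1% of all genes tested. For ndufaf1 the values were 51 and 50 in the wild type against 34 and 27 in mutants (-0.72 ± 0.42); it overlaps nusap1 and rtf1 on the opposite strand, whose means were 707.5 and 1705.8. ndufaf6 was the 1 of these 6 above in both mutants, at 70 and 67 against 50 and 61 in wild type (0.31 ± 0.32). Among all 42 tested assembly factors, taken from a list, both mutants lay above in 5 and below in 11. The shares over all genes tested were 13.3% and 16.1%.

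Complex II, succinate dehydrogenase, links the citric acid cycle to the chain. Its 4 tested subunit genes had a median of 0.02, which was -0.02 after quantile scaling or without wild-type replicate 2. Their groups overlapped in every case, as in 11761 of the 16653 genes tested. sdha, the flavoprotein that oxidises succinate, had 253 and 197 in the wild type against 224 and 252 in mutants (0.09 ± 0.19). sdhb, the iron-sulphur subunit, had 260 and 288 against 323 and 264 (0.09 ± 0.18). The membrane anchor gene sdhc showed the widest gap between the mutants of the 75 members that reached a mean of 50, at 87 and 41, on either side of the wild-type values of 75 and 53. The assembly factor sdhaf2, which attaches the flavin to SDHA, had 164 and 148 in the wild type against 157 and 209 in mutants, where mutant replicate 2 was the higher one.

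The 8 complex III genes all passed the filter on low values and overlapped between the groups, as did 11761 of the 16653 genes tested. Their median was -0.10 (0.02 without mutant replicate 2 and -0.01 without wild-type replicate 1). uqcrfs1, the Rieske iron-sulphur protein, had 559 and 461 in the wild type against 499 and 422 in mutants (-0.15 ± 0.16). uqcrc1, a core protein, had 438 and 583 against 459 and 438 (-0.17 ± 0.16), and uqcrh, the hinge protein near cytochrome c1, had 482 and 512 against 501 and 509 (0.02 ± 0.15). For uqcrh all libraries lay close together. For uqcrb, a small subunit, the mutants stood at 178 and 104, on both sides of 146 and 143 in wild type.

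Complex IV, cytochrome c oxidase, had 12 tested genes of 18, and a median of 0.07, with 8 positive and 4 negative values and 0 called. Of all 16653 genes tested, 7876 were positive and 8777 negative. All 12 overlapped between the groups, as did 11761 of the 16653 genes tested. Mutant replicate 1 was the highest library in 9 of the 12, and its median relative to wild type was 0.29, against -0.16 in mutant replicate 2. The sign of the median therefore turned with the mutant library that was left out.

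cox4i1, a regulatory subunit, showed this order. It had 782 and 801 in the wild type against 967 and 738 in mutant replicates 1 and 2 (0.09 ± 0.15). cox6c had 207 and 226 against 322 and 176 (0.14 ± 0.20). ndufa4l, the NDUFA4 gene with nearly all reads of its family, had 393 and 419 against 526 and 331 (0.04 ± 0.17). Each of these genes was above both wild types in mutant replicate 1 and below both in mutant replicate 2. cox6b2, which had the most reads of the complex, did not, at 983 and 1187 in the wild type against 1078 and 929 in mutants (-0.11 ± 0.14). Other tested genes of the complex also lacked this order, among them cox4i2, cox5ab, cox6a1 and cox7a2a.

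All 16 complex V subunit genes were tested, with a median of -0.08 (0.07 without mutant replicate 2) and 0 called. In 3 of these 16 both mutants lay below both wild types, close to the share of 16.1% over all genes tested. atp5j2, subunit f of the membrane part, had 295 and 289 in the wild type against 243 and 235 in mutants. The replicates agreed closely here and the groups did not overlap, yet the log2 fold change of -0.29 ± 0.18 did not pass (limma adjusted p of 1). The variance that limma used was drawn toward that of genes with similar values.

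atp5a1 and atp5b encode the alpha and beta subunits of the catalytic head. atp5a1 had 1742 and 1588 in the wild type against 1733 and 1387 in mutants (-0.10 ± 0.14), and atp5b had 1325 and 1244 against 1348 and 1134 (-0.05 ± 0.14). atp5f1, subunit b of the peripheral stalk, had 1129 and 1136 against 1083 and 1046 (-0.09 ± 0.14). Of these 3, atp5f1 alone had groups that did not overlap.

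Genes of the central stalk split by library. atp5e, the epsilon subunit, had 327 and 324 in the wild type against 427 and 263 in mutants, and atp5d, the delta subunit, 228 and 223 against 224 and 136 (-0.37 ± 0.20). In all 5 genes of the head and central stalk and in all 4 of the peripheral stalk, mutant replicate 2 was the lowest library.

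**Figure D3:**
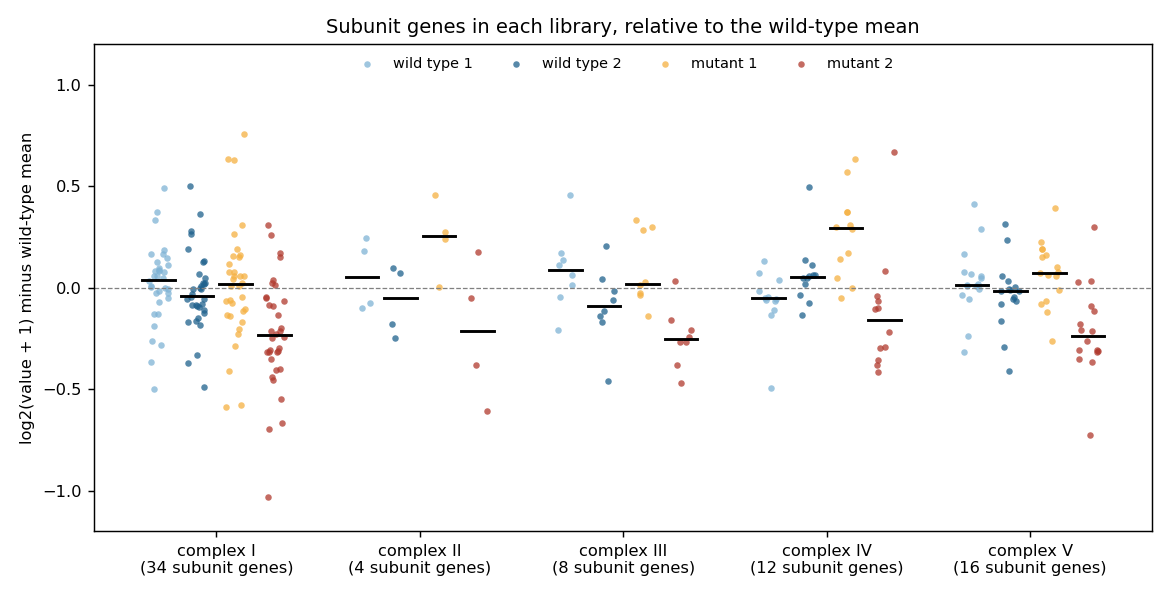
Values of the tested subunit genes in each library as log2(value + 1) minus the wild-type mean of the gene, by complex; black lines are medians over genes. Mutant replicate 2 has the lowest median in each complex, and mutant replicate 1 the highest in complexes II, IV and V.

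Summed over genes, the subunits took 0.249% and 0.243% of the wild-type libraries and 0.256% and 0.237% of mutant replicates 1 and 2. The mutant libraries lay on both sides of the wild type. Complex I took 0.0692% and 0.0664% in the wild type against 0.0675% and 0.0646% in mutants, and complex IV 0.0492% and 0.0528% against 0.0585% and 0.0501%. Complex V took 0.0939% and 0.0884% against 0.0931% and 0.0872%. For complex II the shares were 0.00778% and 0.00712% in the wild type against 0.00823% and 0.00810% in mutants, the 1 complex whose shares did not overlap. Its summed values as deposited did overlap, at 621 and 577 against 678 and 589. The groups separated on division by the library totals, and also on division by the complex I sum. The complex II sum was 0.122 and 0.125 of the complex I sum in mutants against 0.112 and 0.107 in the wild type. With 2 libraries a group an exact two-sided permutation test cannot give a p below 0.333, so no test was made of these sums.

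The ratio of complexes within a library does not depend on its scaling. The complex IV sum was 0.710 and 0.795 of the complex I sum in wild type, and 0.866 and 0.776 in mutants. The complex III sum was 0.422 and 0.421 of it in the wild type against 0.418 and 0.426 in mutants. The first ratio differed within each group by about as much as between the groups, while the second was nearly level in all libraries.

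12 sets of paralogues, 28 genes in all, allowed a comparison of isoform use. In 5 sets 1 gene held nearly all reads in every library. These were cox4i1, cox6a1, cox6b2, ndufa4l and ndufs8a, and the lowest share among them was 94.3%, for ndufa4l in mutant replicate 2. sdhdb held at least 97.4% of its pair except in mutant replicate 2, where it held 84.4%. Their partners were low. cox4i2, the isoform linked to low oxygen in mammals, had 13 and 14 in the wild type against 13 and 22 in mutants. cox6a2 and cox7a1, whose mammalian counterparts are heart and muscle isoforms, had at most 6 in any library.

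In 4 of the 12 sets the share of some gene did not overlap between the groups. In the COX6A and NDUFA4 sets this came from partners with values of 0 to 8, which leaves the COX5A pair and the ATP5G genes as sets of well-covered genes. With 2 libraries a group, any given share separates the groups by chance with a probability of 0.333. That is the smallest p of an exact two-sided permutation test. The count of 4 of 12 sets is therefore no more than unrelated shares would give. cox5ab (ENSDARG00000099663, chromosome 18, 892085 to 895920, minus strand) had 172 and 143 in the wild type against 244 and 166 in mutants. cox5aa (ENSDARG00000088383, chromosome 25, 28631943 to 28636923, minus strand) had 332 and 316 against 335 and 243. Each gene alone overlapped between the groups.

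As a share of the pair, cox5ab took 34.1% and 31.2% in the wild type against 42.1% and 40.6% in mutants. The mutant mean was 8.72 percentage points higher, at 41.4% ± 1.10 against 32.6% ± 2.10 (SD, n = 2 in each group). This ratio does not depend on library scaling, and its 4 values did not overlap, but it is 1 of 12 sets, and an exact permutation test of 2 against 2 libraries cannot go below 0.333. The single-gene log2 fold changes were 0.36 ± 0.21 for cox5ab and -0.18 ± 0.17 for cox5aa, both with a limma adjusted p of 1. That of cox5ab was 0.08 without mutant replicate 1 and 0.63 without mutant replicate 2. cox5ab overlaps gpib on the opposite strand, which had a mean of 8.8.

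The c-ring of ATP synthase is encoded by 3 paralogues whose mature products are near-identical in vertebrates. The likeness of their mRNAs was not computed, and whether the counting split reads among them was not tested. atp5g3b also overlaps lnpb on the same strand, which had a mean of 83.8. atp5g3b took 56.7% and 56.3% of their reads in the wild type against 59.6% and 54.6% in mutants, and atp5g1 15.3% and 11.3% against 14.2% and 18.2%. atp5g3a took 28.0% and 32.5% against 26.2% and 27.2%, with no overlap between the groups. Its values were 247 and 259 in the wild type against 233 and 204 in mutants (-0.21 ± 0.18).

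In the remaining sets both paralogues carried reads and the groups overlapped. ndufab1a, 1 of 2 genes for the mitochondrial acyl carrier protein, took 54.7% and 62.9% of its pair in the wild type against 56.8% and 60.6% in mutants. uqcrc2a took 21.5% and 14.4% against 17.0% and 16.5%, and atp5ia, for subunit e, took 33.9% and 58.7% against 48.5% and 42.0%. In each of these pairs the wild-type libraries lay farther apart than the mutants, outside them on both sides. cox7a2a took 36.0% and 52.4% against 48.2% and 43.2% of the COX7A set, with the same order. That set counts cox7a3 and leaves out a row named COX7A2 in capitals, which had 112 and 73 against 95 and 85, so the share is that among 3 rows only.

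**Figure D4:**
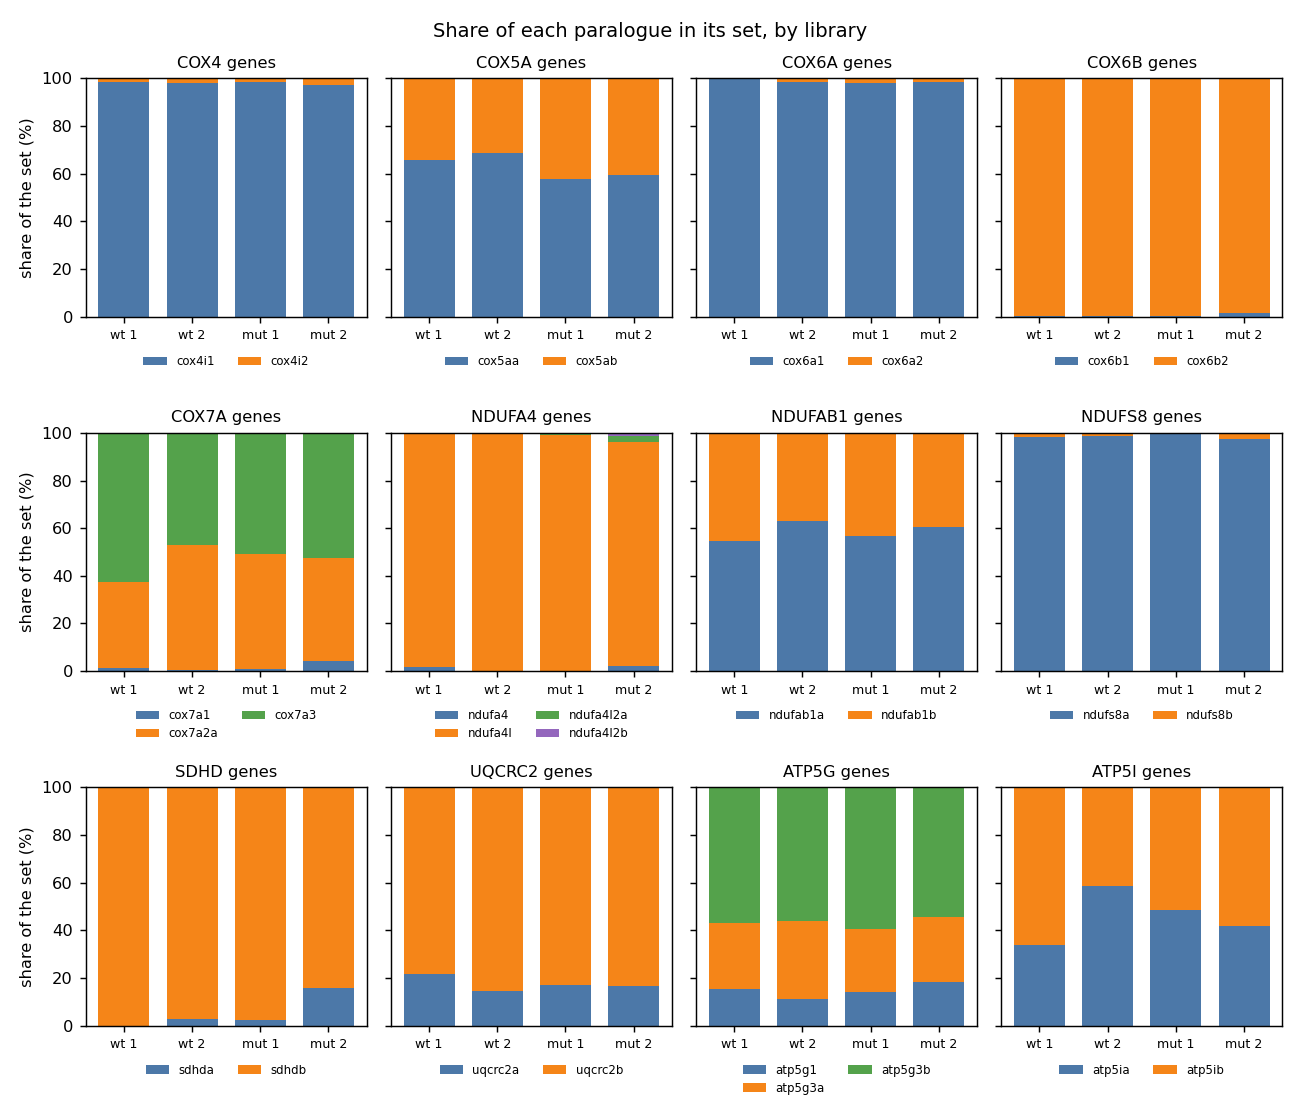
Share of the summed reads of each paralogue set held by each gene, in wild-type replicates 1 and 2 and mutant replicates 1 and 2. In the COX5A panel cox5ab takes 42.1% and 40.6% in mutants against 34.1% and 31.2% in wild type; 5 panels are filled almost wholly by 1 gene in every library.

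9 genes had a mean value under 10 and were not tested: cox6a2, cox6b1, cox7a1, ndufa4, ndufa4l2a, ndufa4l2b, ndufs8b, sdhda and sdhaf1. Their values ran from 0 to 7 in the first 3 libraries and up to 13 in mutant replicate 2. That library was the highest in 6 of the 9, against 68.1% of all genes at that level. ndufa4l2a was listed at 0 in both wild types and at 3 and 8 in mutants. The paralogues of muscle type thus gave nearly no reads in either group. A further 6 rows have the same name stems in capitals and lie outside the rule; 4 of them were tested and 0 called. Of these, COX5B, another cytochrome c oxidase subunit, had 366 and 346 in the wild type against 362 and 278 in mutants (-0.17 ± 0.17).

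The 13 mRNAs of the mitochondrial genome, which encode the partner subunits, had a median log2 fold change of 0.07 and 0 calls. Their order among the libraries was not that of the nuclear genes. Mutant replicate 2 was the highest library in 6 of the 13 and the lowest in 3, with a median of 0.04 relative to wild type, where the nuclear genes had -0.24. mt-nd3 had 824 and 1083 in the wild type against 1015 and 1282 in mutants (0.27 ± 0.14). The 79 tested cytosolic ribosomal protein genes stood at 0.14 in mutant replicate 1 and at -0.23 in mutant replicate 2, which was the lowest library in 77 of them.

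Genes that build or feed the chain were taken from lists. Of 42 tested assembly factors, which include 9 of the genes above, 0 were called and the median was -0.07. At an unadjusted limma p under 0.05, 1 was higher and 2 lower, beside 1.84% and 1.91% of all genes tested. surf1, needed for complex IV assembly, had 33 and 23 in the wild type against 46 and 68 in mutants (1.00 ± 0.42, limma adjusted p of 1). atpaf2, which helps to assemble the ATP synthase head, had 111 and 75 against 57 and 61 (-0.62 ± 0.30), and cmc1, a complex IV assembly factor, 57 and 56 against 29 and 36 (-0.79 ± 0.39). None passed.

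Among 15 regulators of mitochondrial biogenesis and mitochondrial DNA, 0 were called and the median was -0.07. In 1 of them, polg2, both mutants lay above both wild types. In 4, tfam and gabpb2a among them, both lay below. The shares over all genes tested were 13.3% above and 16.1% below. tfam, which packages mitochondrial DNA and starts its transcription, had 424 and 411 in the wild type against 355 and 349 in mutants (-0.25 ± 0.16). polg2, the accessory subunit of the mitochondrial DNA polymerase, had 45 and 55 against 66 and 96 (0.67 ± 0.32). gabpb2a, a subunit of a factor that binds promoters of respiratory genes in mammals, had 456 and 407 against 358 and 375 (-0.23 ± 0.16).

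The 18 tested citric acid cycle genes had a median of -0.04, the 12 electron carriers and partners -0.06 and the 19 glycolysis genes 0.16, with 0 calls in each. fh, fumarase, had 76 and 61 in the wild type against 44 and 49 in mutants (-0.54 ± 0.34). pfklb, a phosphofructokinase gene, had 231 and 249 against 305 and 310 (0.36 ± 0.18). In 5 of the 19 glycolysis genes both mutants lay above both wild types and in 0 below, beside 13.3% and 16.1% of all genes tested. Of these 5, gpia, pkma and pklr had low wild-type means of 31, 36.5 and 36. The glycolysis genes with the most reads, aldoaa, ldhba and hk1, had log2 fold changes of -0.02, -0.20 and 0.01. Among the 12 electron carriers and partners, both mutants lay above in 1 gene and below in 2. dhodh, the 1 above, had 65 and 60 in the wild type against 83 and 93 in mutants (0.49 ± 0.29). vdac3, a channel of the outer membrane and 1 of the 2 below, had 272 and 249 against 229 and 193 (-0.31 ± 0.18).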

How the data were processed

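The deposited table holds 1 score per gene and library, a gene count that the authors scaled by 1 factor per library and rounded; this was read from whole numbers skipped or doubled at regular intervals. Tools named in the submitters' processing notes are STAR 2.4.0a, featureCounts 1.4.5-p1 and DESeq2, with the builds danRer10 and GRCz10; no source here states how strand was handled, so reads of overlapping genes cannot be told apart. Per the labels' protocols, 10 ng of total RNA and single reads of 75 bases were used.

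The 16653 genes that reached a mean of 10 were tested on log2(value + 1) with limma-trend (limma 3.58.1, R 4.3.3), group as the only term, 2 residual and 83.6 prior degrees of freedom, and Benjamini-Hochberg adjustment over all genes tested. The code was tested on simulated data. Tables used Python 3.11.15 and pandas 2.3.3, figures Matplotlib 3.10.9.

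Members and lists were chosen with earlier results of these data known. Named genes were, by rule, called members, the 3 with the largest mean value in each complex, up to 2 per complex and direction with no overlap between groups and a mean of at least 50, all paralogues, the 5 members with the widest gap between replicates in each group, members under 10, and up to 3 genes with the smallest p of each list. Others named (ndufs1, ndufs7, ndufv2, ndufa3, ndufaf1, atp5d, atp5e, atp5s, gpia, pklr, ldhba, hk1 and the markers) were chosen after their values were seen. Of 140 list genes, 10 were not matched and are not analysed here. 6 rows with symbols in capitals fall outside the name rule. npas4l is not analysed here, so the labels had no check from it. 1 member that the rule names is not reported here by name and is left out of the plot of fold changes; it is part of every count and median.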

Additional observations from a re-analysis of the deposited data

How the results depend on the processing

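0 members were called in either direction under every alternative, including other pseudocounts, filters, scalings, limma-voom, symbols in either case and each left-out library. Over all genes 8 were called, against 11 by limma-voom, 15 with totals free of mitochondrial and rRNA genes, 274 without mutant replicate 1, 22 without mutant replicate 2, 7 without wild-type replicate 1 and 6 without wild-type replicate 2. The lowest adjusted p of any member was 0.101, without mutant replicate 1. Without mutant replicate 1 the median log2 fold change of all tested members was -0.235 and that of complex V -0.238; without mutant replicate 2 that of complex I was 0.00993. Leaving out each library in turn, with genes tied in the remaining pair left out and the lone library assumed to vary like the other pair, the median ran from -0.235 to 0.0584 for all tested members, from -0.228 to 0.00993 for complex I, from -0.215 to 0.256 for complex II, from -0.254 to 0.0200 for complex III, from -0.160 to 0.294 for complex IV and from -0.238 to 0.0735 for complex V. The direction of each median thus depended on the mutant library kept, and that of complex II also on wild-type replicate 2; the cause was not tested. No filter moved the median of all genes from -0.02 to 0.07, and that of the members to -0.07. The ratio of mutant to wild-type share moved by less than the replicate spread in every complex with either alternative. Of 557 values of 43 named members, 52 differed in sign from the reported one, and 30 of the 43 members had such a value under some alternative; none was called. With the replicate block 0 members were called (0 higher and 0 lower) and the median of all tested members was -0.0755. The deviations of same-numbered libraries had a correlation of 0.00896 over 16653 genes. With 1 difference per group, this value cannot decide whether same-numbered libraries shared a clutch. Depth limits genes with low values most: the standard error was 0.14 for the best covered members and 1.12 for atp5s.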
